A study of Homo sapiens with 124 samples.

Results

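Chromosome 17 is a gene-rich human chromosome that touches the nuclear lamina rarely. Its 100 kb bins were taken from a table of observed over expected reads on genome build hg19. Bins were kept where every cell had a number and at least 1 cell was above 0. Of the 812 bins of chromosome 17, 33 had no numbers and 7 were at 0 in every cell. This left 772 bins, or 77.2 Mb, which are 2.92% of the 26426 usable bins of the series. Those lie on 22 sequences, among which chromosome 8 is absent and chromosome 15 has only 512 bins. The longest stretch of chromosome 17 without numbers, 2.9 Mb at chr17:22300001-25200000, split its 772 bins into 552 on the long arm and 220 on the short arm.

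The study mapped lamina contacts by single-cell DamID in KBM7, an established human leukaemia line with a near-haploid genome. All cells were haploid cells of clone 14 that expressed the methyltransferase Dam fused to LaminB1, a protein of the lamina. Dam was switched on with 0.5 nM Shield1 for 15 h, and sorting kept the smallest 2% of cells with both Fucci markers, a reporter of the cell cycle. Of 124 labelled cells, 118 had a column and the other 6 were not analysed here. All cells shared clone, fusion and treatment and formed 1 group with no control group, so that no contrast between treatments exists and no p-value is given. Whether 1 or several cultures were used is not labelled, and a single clone limits the results to that clone. SDs measure the spread between cells.

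The nuclear lamina is a protein mesh under the nuclear envelope. Large parts of the genome attach to it and are called lamina-associated domains, which are known to be poor in genes, replicated late and mostly silent, whereas gene-rich chromatin tends to lie inside the nucleus. Chromosome 17 carries many housekeeping genes, and its long arm also holds some wide gene deserts. Dam marks GATC motifs near the lamina over hours, so a bin in contact is taken to have been near the lamina at some time during induction. The call rests on the ratio alone, without a profile of Dam that is not fused to LaminB1.

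Contact means a value of 1 or more. Each cell has a contact share, the percentage of its bins in contact. Each bin has a contact frequency, counted as the percentage of 118 cells that had it in contact. Whole reads were recovered from the ratios. They numbered 28372, 135782 and 385661 per cell (lowest, median and highest) over all usable bins, and 16, 1074 and 6938 on chromosome 17. In the median bin of chromosome 17 a value of 1 stood for 1.17, 5.61 and 15.8 reads. Cells numbered 96 to 124 (n = 28), called the higher-numbered cells, stood apart from cells 1 to 94 (n = 90), the lower-numbered cells. In the 568 bins of chromosome 17 with a frequency of at most 5%, the mean ratio of the median cell was 0.0115 in the lower-numbered cells and 0.118 in the higher-numbered cells. Results are therefore also given for both sets. What set them apart was not tested.

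Chromosome 17 had little lamina contact, and most of that lay in a few places. Of its 772 bins, 373, or 48.3%, were in contact in no cell, against 22.3% of all usable bins. Another 276 bins, or 35.8%, were in contact in some but under 20% of the cells, against 28.8% of all bins. Frequencies of 20 to under 80% were reached by 121 bins, or 15.7%, against 33.9% of all bins. At 80% or more there were 2 bins, or 0.259%, against 15.1% of all bins. Both lay on the long arm, at chr17:68200001-68300000 and chr17:68400001-68500000. With reads thinned to 50000 per cell, which left out 9 cells, 249 bins were in contact in no cell. Another 401 were then in contact in some but under 20% of the cells. The shares of all bins were not computed at that depth. The 2 cell sets kept the same profile along the chromosome, with a Pearson correlation of their frequencies of 0.942 over 772 bins, which share cells and neighbours. Bins at 0 numbered 471 in the lower-numbered cells and 420 in the higher-numbered cells, although the higher-numbered cells are fewer. Leaving cells out of the same set cannot lower its number of bins at 0. Bins at 80% or more numbered 2 in the lower-numbered cells and 19 in the higher-numbered cells.

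**Figure D1:**
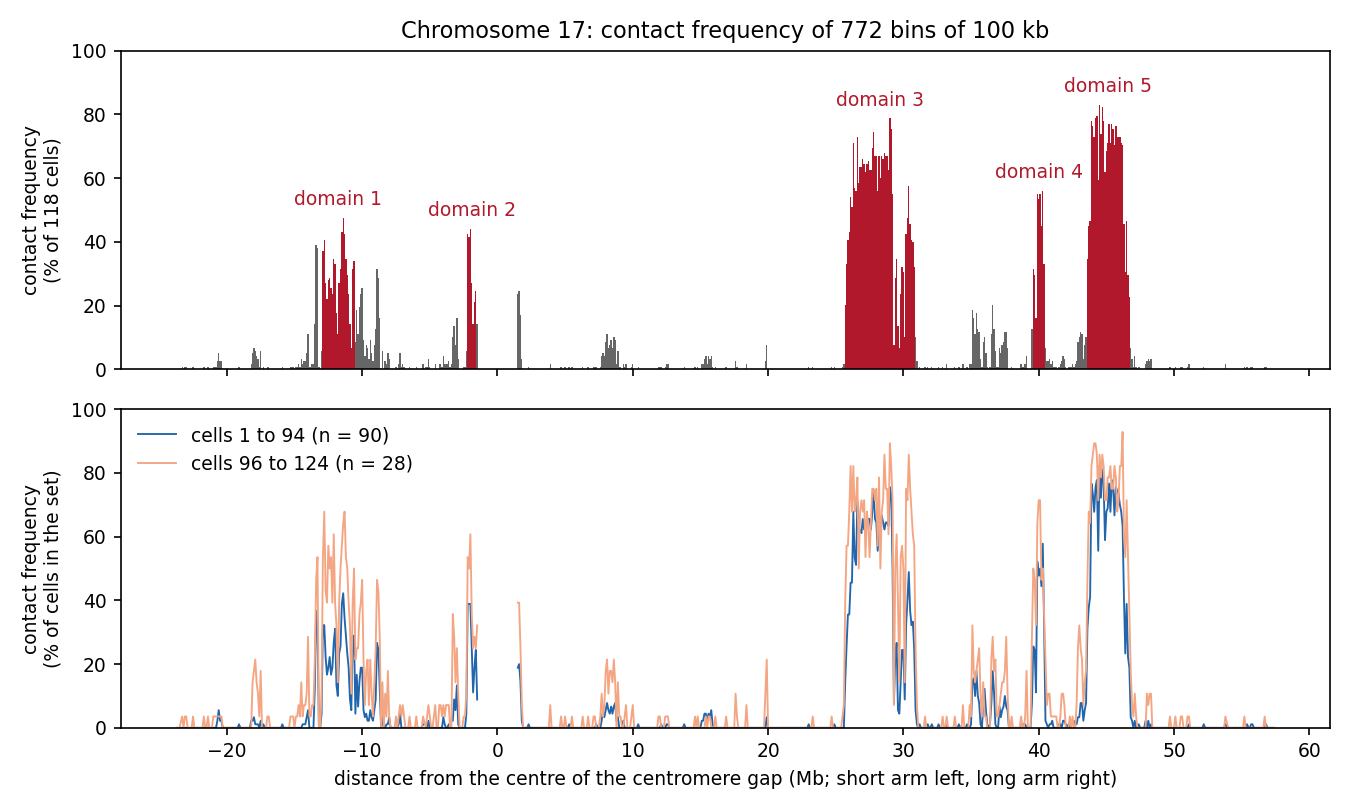
Contact frequency of the 772 bins of chromosome 17 (percent of cells, y axis) by distance from the centre of the centromere gap (Mb, x axis; short arm left), for all 118 cells with the 5 domains in red (top) and for cells 1 to 94 and 96 to 124 as lines (bottom). Peaks stand at the same places in both sets and are mostly higher in cells 96 to 124, and most of the chromosome lies at or near 0.

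Contact was confined neither to 1 arm nor spread evenly over both. The long arm had 10.5% ± 5.19 of its bins in contact per cell and the short arm 6.77% ± 7.80 (SD, n = 118). The long arm had a lowest, median and highest share of 0, 10.7 and 25.9%, and the short arm had 0, 4.09 and 41.8%. No contact was seen on the long arm in 3 cells and on the short arm in 17 cells. Long arm minus short arm was 3.75 percentage points ± 6.62, above 0 in 86 cells, below 0 in 30 and equal in 2, so that the difference was smaller than the spread between cells. It was 4.35 points in the lower-numbered cells and 1.82 points in the higher-numbered cells. Cell 119 had the highest short arm share, 41.8%, beside 12.7% on its long arm. The same cell had the highest mean ratio in rarely contacted bins, 0.401, against a median of 0.0181 over all cells.

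Bins of 20% or more were joined into domains where at most 2 other bins lay between them, and a domain had to span at least 5 bins. This gave 5 domains with 124 bins, or 16.1% of the chromosome. They held 82.9% of its 8612 contacts. Their mean frequency was 48.8%, against 1.92% in the 648 bins outside. Outside the domains the share was 1.32% in the lower-numbered cells and 3.87% in the higher-numbered cells. Domains 1 and 2 lie on the short arm and domains 3, 4 and 5 on the long arm. The limit of 20% chose the domains, so that their frequencies describe them. The first bin of domain 3 stood just inside the limit at 20.3%. The bin at chr17:13500001-13600000, which lies 0.3 Mb beyond domain 1, stood just under it at 19.5%.

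Domain 5, the 3.2 Mb at chr17:67300001-70500000, was the most often contacted. The share of it in contact averaged 64.8% ± 29.8 per cell (SD, n = 118), with a lowest, median and highest share of 0, 75.0 and 100%. Over 50% of the domain was in contact in 87 cells, a smaller part in 24 and none in 7, and 6 cells had all of it in contact. Its mean was 61.8% in the lower-numbered cells and 74.3% in the higher-numbered cells. The bin at chr17:68200001-68300000 was the highest of the chromosome, in contact in 98 cells or 83.1% (exact 95% interval 75.0 to 89.3%). At the near edge the frequency climbed in steps, with 10.2% in the last bin before the domain, 34.7% in its first bin, 46.6% at chr17:67500001-67600000 and 78.0% in the next bin. The last bins sank to 22.9% inside the domain, 6.78% in the bin after it and 3.39% in the next.

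Domain 3, the 5.2 Mb at chr17:49400001-54600000, was the longest and held 36.9% of the contacts of the chromosome. Its share per cell was 51.8% ± 28.0, with a lowest, median and highest share of 0, 54.8 and 98.1%. Over 50% was in contact in 67 cells, a smaller part in 44 and none in 7, and no cell had all of it in contact. Its mean was 48.2% in the lower-numbered cells and 63.5% in the higher-numbered cells. The domain was not uniform. Its first 3.6 Mb, at chr17:49400001-53000000, averaged 61.1% ± 31.1 and peaked in the bin at chr17:52700001-52800000 with 93 cells or 78.8% (interval 70.3 to 85.8%). Behind it lay shorter pieces at 31.8, 28.8 and 43.7%. The last of these, at chr17:53900001-54600000, had 35.4% in the lower-numbered cells and 70.4% in the higher-numbered cells, and the first 3.6 Mb had 58.8% in the lower-numbered and 68.5% in the higher-numbered cells. The pieces in between had 24.4 and 21.1% in the lower-numbered and 55.4 and 53.6% in the higher-numbered cells, so that the sets lay farther apart in the shorter pieces than in the first 3.6 Mb.

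Domain 4, the 0.9 Mb at chr17:63300001-64200000, averaged 41.6% ± 35.0 per cell, with a median of 44.4%. In 51 cells over 50% of it was in contact, in 35 a smaller part and in 32 none. Its highest bin, at chr17:64000001-64100000, was in contact in 66 cells or 55.9% (interval 46.5 to 65.1%). Its mean was 38.4% in the lower-numbered cells and 52.0% in the higher-numbered cells.

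Domain 1, the 2.4 Mb at chr17:10800001-13200000, averaged 29.0% ± 33.1 per cell. Its median cell had only 12.5% in contact, and the highest, cell 100, had 100%. It was free of contact in 45 cells and partly in contact in 40, and 33 cells had over 50% of it in contact. The SD exceeded the mean, since cells with no contact stood beside cells with most of the domain in contact. The mean was 23.7% in the lower-numbered cells and 46.0% in the higher-numbered cells. Its highest bin, at chr17:12300001-12400000, was in contact in 56 cells or 47.5% (interval 38.2 to 56.9%). Pairs of bins on the short arm outside the domains also passed 20%, at chr17:10300001-10500000 with 38.6%, at chr17:13600001-13800000 with 24.6% and at chr17:14800001-15000000 with 30.1%.

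Domain 2, the 0.7 Mb at chr17:21500001-22200000, ends 0.1 Mb before the centromere gap. It averaged 30.8% ± 29.3 per cell, with over 50% in contact in 30 cells, a smaller part in 52 and none in 36. Its mean was 27.9% in the lower-numbered cells and 39.8% in the higher-numbered cells. Few reads stood behind it. In 2 of its 7 bins a value of 1 stood for under 1 read in the median cell, and 22.0% of its contacts rested on 1 read. In domains 1, 3, 4 and 5 the share resting on 1 read was 0, 0.0629, 0.226 and 0%. With 3 reads or more required for a contact, a rule added after the data were seen, domain 2 averaged 17.6% and no longer formed a domain. Domains 1, 3, 4 and 5 averaged 28.7, 51.1, 41.0 and 64.0% under that rule. The 2 first bins of the long arm, at chr17:25200001-25400000, had 24.2%, and 10.2% with 3 reads or more.

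**Figure D2:**
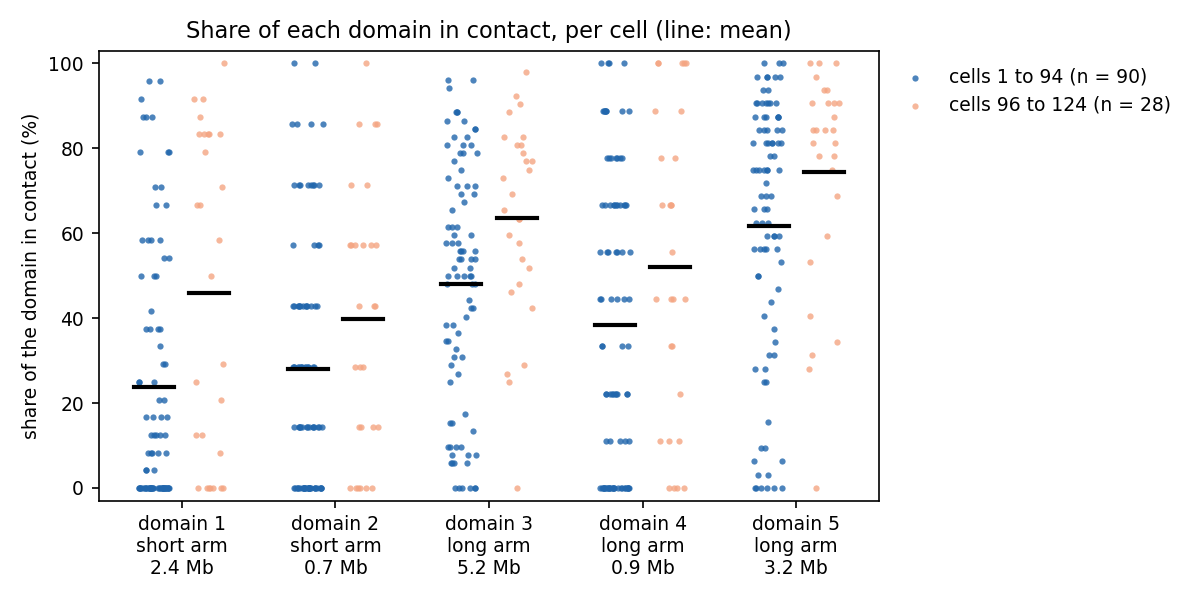
Share of each domain in contact (percent, y axis) in every cell (points) with the mean (black line), for cells 1 to 94 and 96 to 124 in each of the 5 domains (x axis). Domain 5 has the highest means, 61.8 and 74.3%, and domain 1 has many cells at 0; the means of cells 96 to 124 are above those of cells 1 to 94 in all 5 domains.

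Bins of low frequency interrupted the domains. Inside domain 3 the bin at chr17:53000001-53100000 stood at 7.63%, between neighbours at 55.1 and 28.8%. In 29 cells both neighbours were in contact, and in 23 of these the bin was not. Its left edge was the largest step between neighbouring bins on the chromosome. In 56 cells the left bin alone was in contact, in 9 cells both and in 53 neither, and in no cell was the right bin alone in contact. Another bin of domain 3, at chr17:53800001-53900000, had 10.2% between 30.5 and 42.4%. Domain 5 had such bins at chr17:68100001-68200000, with 59.3% between 79.7 and 83.1%, and at chr17:70100001-70200000, with 30.5% between 45.8 and 46.6%. All 4 bins were below both neighbours in both cell sets. In domain 4 the bin at chr17:63500001-63600000 had 16.1% and the next had 55.1%. Other low bins were also not 15 points below both neighbours. The lowest bin of domain 3 was one of them, at chr17:53400001-53500000 with 6.78%. Domain 1 had 17.8% at chr17:11800001-11900000 and 11.0% at chr17:11900001-12000000. It also had 14.4% at chr17:12800001-12900000 and 6.78% at chr17:12900001-13000000. The lowest bin of domain 2, at chr17:21900001-22000000, had 14.4%.

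The gene landscape of the domains is given as background. No bin was assigned to a gene, since no hg19 annotation was used here, and gene positions are stated from general knowledge of the region. The order of the genes was checked only as neighbours in the RefSeq annotation of GRCh38.p14. Domain 5 is known to run from MAP2K6, a kinase of the p38 stress pathway, past the potassium channel genes KCNJ16 and KCNJ2 to SOX9, a regulator of cartilage and testis development. RefSeq lists 0 protein-coding genes between KCNJ2 and SOX9, an interval known for distant SOX9 enhancers. The low bins of domain 5 lie where KCNJ2 and SOX9 are known to be. Domain 3 is known to hold CA10, which encodes a carbonic anhydrase-related protein of neurons, and KIF2B, a kinesin gene, in its main body. A denser series follows, with TOM1L1, COX11, STXBP4, HLF, MMD, SMIM36, TMEM100, PCTP and ANKFN1. COX11, needed to assemble cytochrome oxidase, is known to lie near the low bin at chr17:53000001-53100000. Domain 4 is known for AXIN2, an inhibitor of Wnt signalling, and CEP112, a centrosomal protein gene. Domain 1 is known to hold SHISA6, DNAH9, ZNF18, MAP2K4, MYOCD, ARHGAP44 and ELAC2. DNAH9 encodes a dynein of cilia, MAP2K4 a stress-activated kinase and MYOCD a coactivator of smooth muscle and heart genes. Expression was not measured in these cells.

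Long stretches of the long arm had next to no contact. The longest without contact in any cell was 2 Mb at chr17:44700001-46700000. Stretches of 1.5 Mb at chr17:26100001-27600000 and chr17:76000001-77500000 followed, and then 1.3 Mb at chr17:42200001-43500000 and chr17:47100001-48400000. In all there were 86 such stretches, with a median length of 0.3 Mb, and 10 spanned at least 1 Mb. At 0 of 118 cells a bin can still have a frequency of up to 2.54%, taking 3 counts as the limit, and its exact 95% interval ends at 3.08%. The longest stretch at 5% or less was 8.8 Mb at chr17:34800001-43600000, with a mean frequency of 0.501% and no contact at all in 97 cells. The 7 Mb at chr17:70600001-77600000, just beyond domain 5, had 0.460% and no contact in 99 cells. The 4.7 Mb at chr17:44700001-49400000, which ends where domain 3 begins, had 0.126% and no contact in 113 cells. It is known to include the HOXB cluster of developmental regulators. Its few contacts gave 0.0473% in the lower-numbered cells and 0.380% in the higher-numbered cells. Signal was low as well, with at least 1 read behind 12.5% of its bin values.

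**Figure D3:**
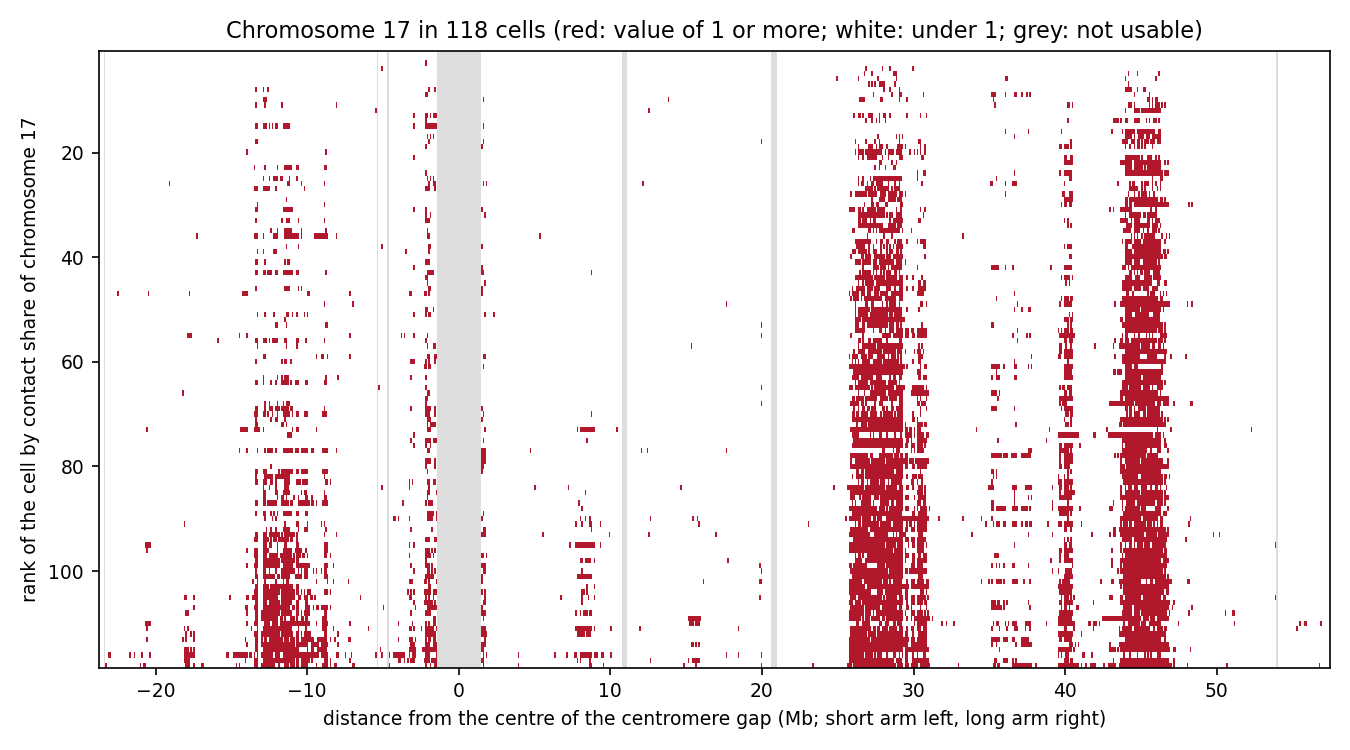
Contacts of chromosome 17 in single cells: each line is 1 of 118 cells, ordered from the lowest contact share (top) to the highest (bottom), and the x axis is the distance from the centre of the centromere gap (Mb, short arm left). Red marks values of at least 1 and grey bins that were not usable. Contacts form columns at the 5 domains. Many cells with low shares keep them mostly in domains 3 and 5, but cells 50 and 57 had contacts and none in either.

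Contacts near the chromosome ends were rare. Bins within 2 Mb of an end (39 bins) had a mean share of 0.174% per cell, and 114 of 118 cells had no contact there. Bins at 2 to under 10 Mb (159 bins) had 0.714% ± 1.88 (SD, n = 118), and bins at 10 Mb or more (574 bins) had 12.5% ± 6.80. Within 2 Mb of the centromere gap the long arm had 3.47% ± 4.96 and the short arm, which holds domain 2 there, 14.5% ± 15.3. Each SD exceeded its mean, and the difference between the arms within cells was not computed there. Over both arms the share was 8.98% ± 9.19 within 2 Mb of the gap. It was 4.41% ± 6.10 at 2 to under 10 Mb and 10.8% ± 5.53 at 10 Mb or more. Of the contacts within 2 Mb of the gap, 25.5% rested on 1 read, and with 3 reads or more the shares were 1.86% on the long arm and 7.54% on the short arm.

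Cells differed widely in how much of chromosome 17 they had in contact. The share was 9.45% ± 5.26 per cell, with a lowest, median and highest share of 0, 9.07 and 25.4%, the last in cell 98. It was 8.35% ± 4.81 in the lower-numbered cells and 13.0% ± 5.16 in the higher-numbered cells. As a percentage of the share on all other chromosomes it was 28.1% ± 15.2, from 0 in cells 29 and 52 to 85.3% in cell 12. Cell 12 was among the shallowest, with 35947 reads in all. Over the 118 cells the share of chromosome 17 and that of the other chromosomes had a Pearson correlation of 0.309 and a Spearman correlation of 0.344. Within the lower-numbered cells the Pearson correlation was 0.223, and within the higher-numbered cells it was 0.123. Both shares of a cell come from 1 library and share its depth.

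A few cells had almost no signal on chromosome 17 while other chromosomes had theirs. Cell 29 had 60 of its 223896 reads there, cell 52 had 40 of 146790 and cell 57 had 16 of 102381. In these cells 94.6, 97.4 and 98.3% of the bins of chromosome 17 had no read. Cells 29 and 52 had no contact on chromosome 17, and cell 57 had 1 bin in contact. Their shares on all other chromosomes were 42.2, 35.4 and 33.6%, close to or above the mean of 33.7%. A value of 1 on chromosome 17 stood for 9.08, 5.84 and 4.12 reads in the median bin of these cells, against a median of 5.61 over all cells. Cell 73 also had few reads on chromosome 17, 32 of 35034, and 97.3% of the bins there had no read. It was shallow as a whole, with a value of 1 at 1.39 reads and a share of 19.3% on the other chromosomes, and 8 bins of chromosome 17 were in contact.

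Within a cell, the contacts of chromosome 17 came in pieces. A cell had 20.1 ± 10.8 runs of consecutive contact bins (SD, n = 118), from 0 to 63 in cell 119, with a median of 18. The 2373 runs of all cells had a median length of 0.2 Mb and a mean of 0.363 Mb. Single bins made up 1142 of the runs, and runs of at least 1 Mb held 42.7% of contacts. The longest run of a cell was 1.88 Mb ± 1.06 on average. It overlapped domain 5 in 58 cells, domain 3 in 45 cells and domain 1 in 5 cells. The longest of all was 3.9 Mb, at chr17:49400001-53300000 in cell 19. All 3.2 Mb of domain 5 were in 1 run in 6 cells.

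Cells with more contact in a domain mostly had more in other domains too. After the share of the other chromosomes was removed by regression, domains 3 and 5 had a Pearson correlation of 0.564 over 118 cells and a Spearman correlation of 0.531. The Pearson value was 0.587 in the lower-numbered cells and 0.467 in the higher-numbered cells. Counted by cells with over 50% in contact, both domains were in contact in 60 cells, domain 3 alone in 7, domain 5 alone in 27 and neither in 24. Domain 3 was thus seldom in contact without domain 5, which lies 12.7 Mb away, but domain 5 was over 50% in contact in 87 of 118 cells. In the lower-numbered cells both were in contact in 42, domain 3 alone in 4, domain 5 alone in 22 and neither in 22. The same counts in the higher-numbered cells were 18, 3, 5 and 2. On the short arm, domains 1 and 2 had a correlation of 0.576, with 0.619 in the lower-numbered cells and 0.479 in the higher-numbered cells. The reads behind domain 2 are few, as given above.

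Domain 4 lies between domains 3 and 5. It correlated with them at 0.463 and 0.487, and at 0.548 and 0.549 in the lower-numbered cells but at 0.116 and 0.266 in the higher-numbered cells. Across the centromere gap the correlations were lower for domain 4 than for domain 3. Domain 3 had 0.412 with domain 1 and 0.384 with domain 2. Domain 4 had 0.211 with domain 1 and 0.0993 with domain 2, and with domain 2 it had 0.223 in the lower-numbered cells and -0.287 in the higher-numbered cells. Domain 5 had 0.328 with domain 1 and 0.140 with domain 2. The whole arms had 0.509, with 0.524 in the lower-numbered cells and 0.392 in the higher-numbered cells. All these correlations describe cells of 1 group whose domains share a library, and no test was made. Of the 118 cells, 18 had no domain at over 50%, 22 had 1, 25 had 2, 26 had 3, 17 had 4 and 10 had all 5. The 18 cells without such a domain were 17 lower-numbered and 1 higher-numbered cell. Those with all 5 were 8 lower-numbered and 2 higher-numbered cells.

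**Figure D4:**
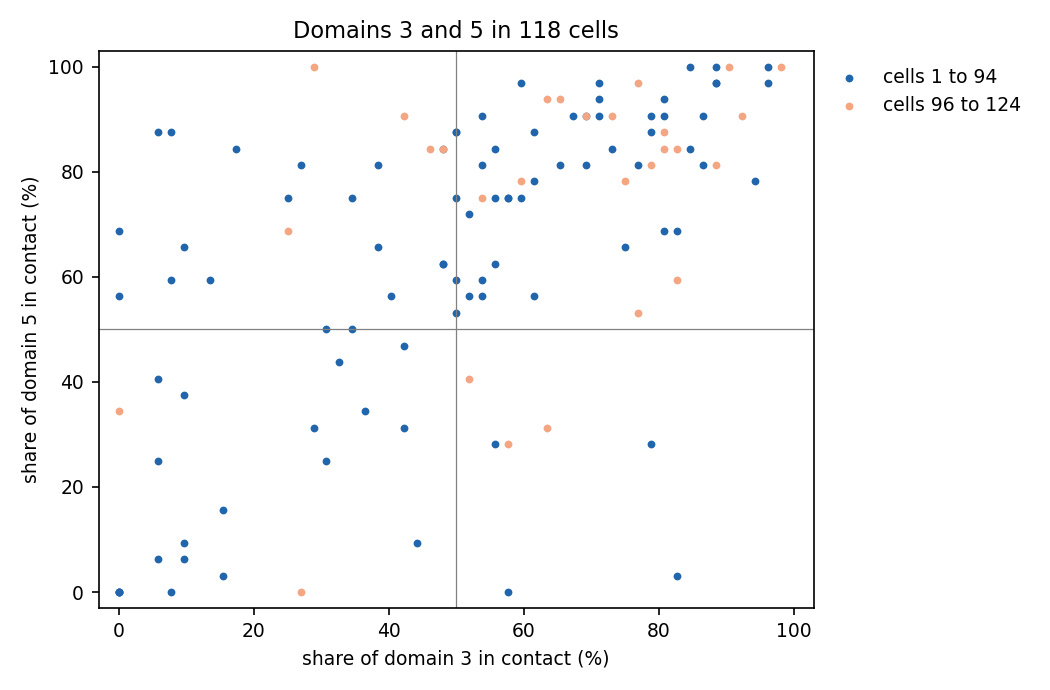
Share of domain 3 (x axis, percent) and of domain 5 (y axis, percent) in contact in each of 118 cells (points, coloured by cell set), with lines at 50%. The upper right holds 60 cells, the upper left 27, the lower right 7 and the lower left 24, with points on a line counted to its left or below it.

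The ratio of bins in contact went with their frequency, and both come from the same values. The median ratio in contact was 1.61 for the 92 bins under 20% that had at least 5 cells in contact, 2.07 for the 121 bins at 20 to under 80% and 2.51 for the 2 bins at 80% or more. Over the 215 bins with at least 5 cells the Spearman correlation was 0.631. In domains 1 to 5 the median ratio in contact was 1.84, 1.92, 2.03, 1.84 and 2.27.

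Chromosome 17 was compared with its neighbours in number, which include chromosome 18 of similar size and the gene-rich chromosome 19. Chromosome 17 had 14.4 protein-coding genes of RefSeq (GRCh38.p14) per Mb of sequence in the table, against 9.45 on chromosome 16, 3.46 on chromosome 18 and 24.5 on chromosome 19. It ranked 2 of 20 chromosomes in gene density, which leave out chromosome 8, without usable bins, and the translocated 9 and 22. Only 2 of 22 sequences had a lower contact share, chromosome 19 and 22:9, a product of the translocation that the line carries. Over the 20 chromosomes the Spearman correlation of contact share and gene density was -0.666, and the chromosomes share cells. Its contact share of 9.45% ± 5.26 stood against 18.2% ± 8.58 on chromosome 16, 41.4% ± 9.93 on chromosome 18 and 2.95% ± 2.80 on chromosome 19 (SD, n = 118 cells each). Chromosome 17 minus chromosome 16 was -8.79 points ± 9.08 and below 0 in 101 of 118 cells. Chromosome 17 minus chromosome 18 was -31.9 points ± 10.3, and cell 98 was the only cell above 0. Chromosome 17 minus chromosome 19 was 6.50 points ± 4.93, above 0 in 108 cells, and the 10 cells below 0 were all among the lower-numbered cells. The differences from chromosomes 18 and 19 thus exceeded the spread between cells. That from chromosome 16 was close to the spread, with -7.76 points ± 8.35 in the lower-numbered cells and -12.1 points ± 10.6 in the higher-numbered cells. Bins at 0 made up 48.3% of chromosome 17, against 34.8% of chromosome 16, 9.45% of chromosome 18 and 61.0% of chromosome 19. Bins at 80% or more numbered 2 on chromosome 17, against 35 on chromosome 16, 160 on chromosome 18 and 0 on chromosome 19.

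**Figure D5:**
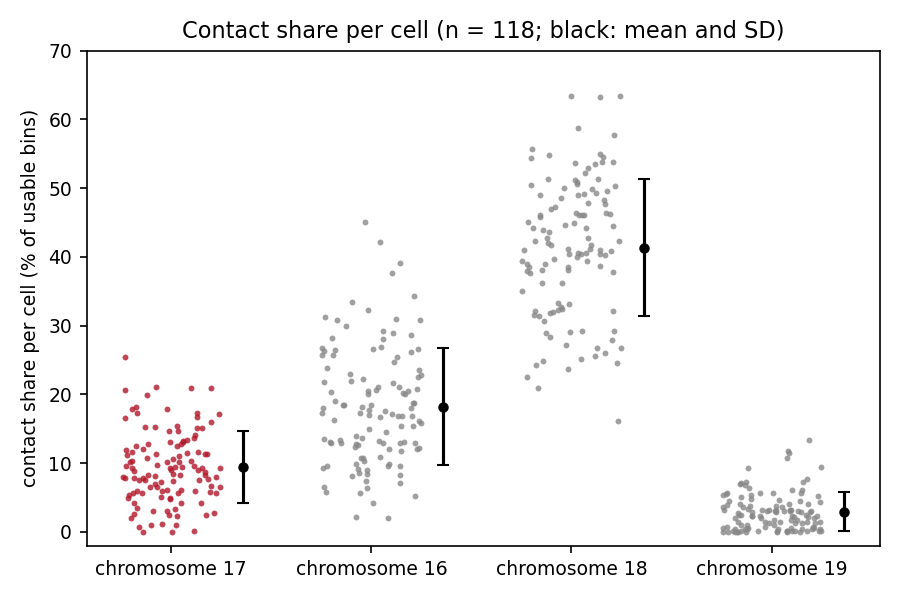
Contact share per cell (percent of usable bins, y axis) on chromosomes 17, 16, 18 and 19 (x axis), with 1 point for each of 118 cells and the mean and SD in black. Chromosome 17 averages 9.45%, between 2.95% on chromosome 19 and 18.2% on chromosome 16, and lies below chromosome 18 at 41.4%.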

How the data were processed

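Single-cell DamID reads were deposited as 1 table with the ratio of observed to expected reads per cell in bins of 100 kb. The unit was taken from the name and values of the table. How the authors computed the expected part is not stated in what was used here. Per the submitters' processing notes, cutadapt, Bowtie2 2.1.0 and hg19 were used, with no roles or settings stated. A profile of unfused Dam was not used here. Whole reads were recovered from the ratios as multiples of a bin step and a cell step, and 100% of values came out whole to a tolerance of 0.02 reads. Recovered reads are the smallest whole numbers that give the ratios, and no molecular identifiers stand behind them.

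Contacts, frequencies, domains, runs and correlations were computed in Python 3.11.15 with numpy 2.4.6, pandas 2.3.3 and scipy 1.17.1. Only the recovery of reads and the finding of domains were tested on simulated data, and the counting of runs on a made-up example. A low bin inside a domain was one at least 15 points below both neighbours. The further low bins named in domains 1 to 4 and the pieces of domain 3 were picked after their values were seen. Exact Clopper-Pearson intervals (95%) and limits cover the counting of cells only. All domains, bins at 80% or more and the 5 longest stretches without contact were to be described, and genes given values only with an annotation of the table's build. Cells are not replicates of a condition, so no test was made. The members, domains and comparisons were chosen with earlier results of these data known. Alternatives were other contact values, 50000 reads per cell, cell subsets, scaling, and domain and run rules. No sequence is shown, as no hg19 genome was used here.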

Additional observations from a re-analysis of the deposited data

How the results depend on the processing

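Of 375 values of 28 results under 18 alternatives, 350 moved by less than 1 SD over cells, 1.5 times for counts and lengths or 0.1 for correlations, and 25 moved by more. Of the differences and correlations among these results, 0 changed sign, and shares, lengths and counts could not do so. The correlations among them were those of the arms, of domains 3 and 5 and of domains 1 and 2. That of domains 2 and 4 was not among them. It was 0.0993 in all cells and -0.287 in cells 96 to 124. The SD over cells is wide, so the count of 350 says little of the domains. Their mean frequencies ranged over the alternatives from 12.1 to 46.0% (domain 1), 14.5 to 40.8% (domain 2), 26.7 to 66.9% (domain 3), 18.5 to 58.4% (domain 4) and 39.2 to 76.9% (domain 5). The lowest values came at a contact value of 2. Chromosome 17 minus chromosome 16 exceeded its SD under some alternatives, with -11.2 points ± 10.2 at a contact value of 0.5, -9.40 ± 9.17 without the cells under 3 reads, -12.1 ± 10.6 in cells 96 to 124, -8.61 ± 8.43 with 50000 reads and -8.60 ± 7.86 in odd-numbered cells. The number of bins at 80% or more, 2, became 34 at a contact value of 0.5, 0 at 1.5, 0 at 2, 0 with 50000 reads per cell, 8 without the 14 cells whose value of 1 stood for under 3 reads, 19 in cells 96 to 124 and 9 in even-numbered cells. At a contact value of 0.5, 521 bins were above 0 and under 20%, 96 were in no cell, the correlation of the arms was 0.613 and contact within 2 Mb of the ends 1.43%. At a contact value of 2, 68 bins were at 20 to under 80%, chromosome 17 minus chromosome 18 was -18.1 points, and 3 domains spanned 6 Mb. With a domain limit of 40% the domains spanned 7.3 Mb. The longest stretch without contact, 2 Mb, became 0.3 Mb at a contact value of 0.5, 3.6 Mb at 1.5, 4.7 Mb at 2, 1.1 Mb with 50000 reads, 3.9 Mb in cells 1 to 94 and 3.6 Mb in odd-numbered cells. In cells 96 to 124 the correlation of the arms was 0.392, and with gaps of 1 bin bridged the mean run was 0.621 Mb. Of 3 alternatives added after the data were seen, leaving out the 3 cells with the fewest reads on chromosome 17 (52, 57 and 73) gave 6 bins at 80% or more. Leaving out cell 119 gave 3 such bins, 396 bins at 0 and a long minus short arm difference of 4.03 points. With 3 reads or more per contact, 4 domains met the limit and contact within 2 Mb of the centromere gap was 4.70% in place of 8.98%. Thinning to 50000 reads left out 9 cells. It gave 249 bins in no cell in place of 373, which is inside the limit of 1.5 times but not a small shift. The cause of these shifts was not tested. Differences between the whole arms and between chromosomes were taken within cells. No pairing between groups was possible because the cells form 1 group.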
